A study of Homo sapiens with 9 samples.

Results

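Lymphoid cell markers were followed in RNA of neuroblastoma cells that had been recovered from bone marrow. The markers were 37 genes named by their known roles in T cells, B cells, plasma cells and natural killer (NK) cells, together with PTPRC, which all leukocytes share. The platform annotation paired 36 of them with probe sets of their own, 101 probe sets in all, among 18132 genes and 44988 probe sets that carried a single gene symbol. TCF7, a transcription factor of naive T cells, was not analysed here.

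Cells of LAN-1, an established human neuroblastoma line, were added to bone marrow free of tumor, mononuclear cells were isolated on a density gradient, and the tumor cells were recovered with an antibody to the ganglioside GD2 and magnetic beads. The arrays labelled fresh held cells recovered without freezing. For the other arrays, the mononuclear cells with the tumor cells were frozen in DMSO, stored for a week and thawed, and the tumor cells were then recovered either directly (frozen without gradient) or after a further density gradient (frozen with gradient). Each condition had 3 arrays, described as biological replicates, and all 9 shared the same cell line, marrow as the carrier and GD2 selection. The conditions are named as in the sample titles, and whether the titles of the frozen conditions are exchanged could not be settled from the sources used here. If they are, with and without gradient change places in every value below. A single cell line stands for the tumor in this model, and no array held the depleted marrow cells alone, so no array served as a reference for lymphoid signal.

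T cells recognize antigen through a receptor that signals by way of the CD3 chains, the CD247 chain and the kinases LCK and ZAP70. B cells signal through CD79A and CD79B under control of PAX5, and they mature into plasma cells that secrete antibody. NK cells and cytotoxic T cells kill with perforin and granzymes. These cells belong to the mononuclear fraction of bone marrow, from which GD2 selection is meant to separate the tumor cells.

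The values were log2 signals after RMA, which corrects background, normalizes arrays to a shared distribution and summarizes the probes of a probe set. The 18 measured neuroblastoma genes had mean log2 signals of 5.75 to 12.9, among them MYCN with 6.38 to 11.7 over the arrays. Frozen with gradient replicate 1 stood apart. Its GAPDH control probe sets differed by 6.73 on the log2 scale between the 3' and the 5' end, against 0.94 to 4.92 on the other 8 arrays, and 22 of 23 background control probe sets lay above their 9-array median there. Some results that rest on this array are given with and without it. Others are given only with it, among them the differences of CD3E, IL7R, CCR7, EBF1 and the neuroblastoma list between the frozen conditions. The GAPDH difference between ends was 1.16 ± 0.26 over the frozen without gradient arrays, against 3.35 ± 1.69 fresh and 3.90 ± 2.49 with gradient (SD, n = 3). Both comparisons with frozen without gradient gave a two-sided exact permutation p of 0.1, the smallest the design allows. It lay at 0.94 to 1.45 on the frozen without gradient arrays and at 1.56 to 6.73 on all others. As a covariate it therefore cannot be told apart from that condition, and fits with it are given as values only. Its part in the values of single genes was not tested. Because the signals came from bulk RNA, fewer cells of a type and less RNA per cell cannot be told apart.

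No lymphoid marker passed the criterion of an unadjusted p under 0.05 in limma with an absolute log2 difference over 1, in any of the 3 comparisons. The count was 0 of 36 for frozen without gradient against fresh, where 2.47% of all genes passed, 0 of 36 for frozen with gradient against fresh, where 0.0882% passed, and 0 of 36 for frozen with gradient against frozen without gradient, where 4.35% passed (788 genes, or 1298 with the replicate number as a block). None of the 36 had a Benjamini-Hochberg adjusted p under 0.05 in limma, and neither did any other gene (0%). The smallest adjusted p among the markers was 0.315, 0.857 and 0.244 in limma in these comparisons. At an unadjusted p under 0.05 alone, 1, 3 and 9 of 36 markers were counted, beside 13.4%, 3.65% and 20.2% of all genes. Since most markers had low signals, genes of like level are the closer reference. In the bands of 3 to 4 and 4 to 5 in mean log2, which held 13 and 11 markers, few genes passed the criterion. The shares were 0.089% and 1.14% for frozen without gradient against fresh and 0.030% and 0.11% for frozen with gradient against fresh. Between the frozen conditions they were 0.089% and 1.09%, so a count of 0 lies near these shares. There, 3 of 13 and 3 of 11 markers had an unadjusted p under 0.05, beside 10.5% and 18.2% of genes. Against fresh, frozen with gradient had 2 of 13 and 0 of 11, beside 3.12% and 4.43%.

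A p above the threshold does not show that the conditions were alike, so the intervals were read. The 95% interval of the difference lay within 1 log2 unit in either direction for 32 of 36 markers in frozen without gradient against fresh, for 28 in frozen with gradient against fresh and for 24 in frozen with gradient against frozen without gradient. The bound farthest from 0 was that of PTPRC, at 1.80 in size. For PTPRC, NCAM2 and ZAP70, differences over 1 could not be set aside in any comparison.

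**Figure D1:**
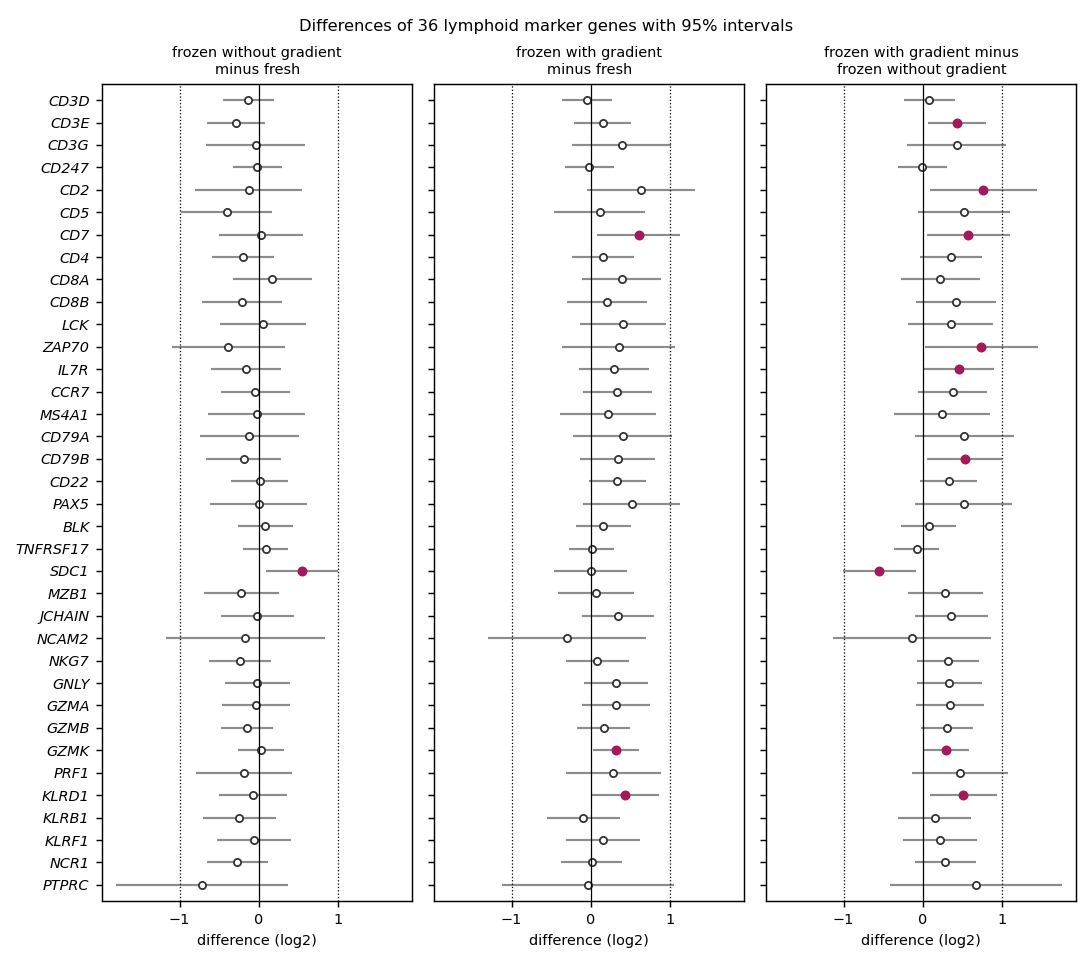
Difference in log2 signal for each of 36 lymphoid marker genes in the 3 comparisons, with horizontal lines for the 95% interval from limma over 3 arrays per condition and dotted lines at a difference of 1. Filled points have an unadjusted p under 0.05 (1, 3 and 9 genes), and no point lies beyond a dotted line.

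The markers leaned one way in the comparisons with the frozen with gradient arrays. Their median difference was -0.10 for frozen without gradient against fresh (-0.078 over all genes), 0.25 for frozen with gradient against fresh (0.017 over all genes) and 0.35 for frozen with gradient against frozen without gradient (0.15 over all genes). The difference was above 0 for 9, 30 and 32 of 36 markers, against 38.9%, 52.5% and 62.6% of all genes. Against the median gene in its own band of mean signal, a marker's difference was higher for 17, 26 and 27 of 36, by a median of -0.032, 0.16 and 0.12. The 18 neuroblastoma genes lay the other way, with a median difference of -0.65 between frozen with and without gradient and 3 of 18 past the criterion as lower, and MYCN had its lowest value, 6.38, in frozen with gradient replicate 1. Without frozen with gradient replicate 1, the marker medians were 0.090 against fresh and 0.17 against frozen without gradient, and the counts at an unadjusted p under 0.05 in limma were 1 and 0. Cyclic loess normalization brought the median between the frozen conditions to 0.18 for the markers and 0.037 for all genes. With the GAPDH difference between ends as a covariate, the median of frozen without gradient against fresh turned to 0.098. That of frozen with gradient against fresh was then 0.21. At an unadjusted p under 0.05 in limma it had 8 of 36 markers, beside 2417 of 18132 genes. Without frozen with gradient replicate 3 the median against fresh was 0.34. Over 22 alternatives it ranged from 0.049 to 0.35, and the median between the frozen conditions from 0.057 to 0.45. Between conditions, all arrays of the first lay above all arrays of the second for 1, 3 and 13 of 36 markers (11.8%, 3.82% and 19.9% of all genes) and below for 3, 0 and 1 (13.8%, 2.97% and 15.7%).

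The 4 chains of the T cell receptor complex are described first by the most variable probe set of each. There, CD3E had an unadjusted p under 0.05 in the comparison of the frozen conditions and the others in none. CD3D, a CD3 chain, lay between 2.73 and 3.19 on all 9 arrays. CD247, the zeta chain that carries most of the signaling motifs, lay between 4.63 and 4.95, so the conditions overlapped for both. CD3E, the epsilon chain, read 4.64, 4.96 and 4.64 in the fresh arrays, 4.44, 4.56 and 4.39 in the frozen without gradient arrays, and 5.03, 4.99 and 4.66 in the frozen with gradient arrays. All 3 arrays of frozen with gradient lay above all 3 of frozen without gradient, with a difference of 0.43 ± 0.16 (SE, n = 3 per condition, limma adjusted p = 0.244). CD3G, the gamma chain, reached 5.04 in frozen with gradient replicate 1 and lay between 3.85 and 4.35 elsewhere. Another CD3G probe set, unique to the gene, read 3.78, 3.43 and 3.27 with gradient, above every other array. Fitted on its own, it was higher by 0.38 over fresh and 0.60 over frozen without gradient (limma unadjusted p = 0.033 and 0.0036, adjusted p = 0.826 and 0.254). The remaining CD3G probe set had no unadjusted p under 0.05.

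Among T cell surface genes, CD2, an adhesion receptor of T and NK cells, had values of 4.06, 4.17 and 3.66 in the fresh arrays, 3.90, 3.82 and 3.79 without gradient, and 5.27, 4.55 and 3.98 with gradient. Frozen with gradient replicate 1 was the highest and replicate 3 of that condition lay within the fresh range. The difference between the frozen conditions was 0.76 ± 0.30 (SE, limma adjusted p = 0.244), the highest of the 36, and 0.43 without replicate 1. Without replicate 3 it was 1.07 and passed the criterion.

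CD7, a surface molecule of T and NK cells, had values of 7.02, 6.87 and 6.81 fresh, 7.12, 6.85 and 6.82 without gradient, and 8.0, 7.47 and 7.05 with gradient. It lay above every fresh array in all 3 arrays with gradient, by 0.61 ± 0.23 (SE, limma adjusted p = 0.857), although frozen without gradient replicate 1 exceeded the lowest of them. Leaving out frozen with gradient replicate 1 brought the difference from fresh to 0.36. CD5, CD4, CD8A and CD8B, a T cell inhibitory receptor and the coreceptors of helper and cytotoxic T cells, had differences of -0.41 to 0.52 over the 3 comparisons, none with an unadjusted p under 0.05. CD4 is also carried by monocytes.

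Both kinases and both receptors of naive and memory T cells were highest in frozen with gradient replicate 1. ZAP70, the kinase that binds the phosphorylated receptor chains, had values of 5.34, 4.98 and 4.98 fresh, 4.98, 4.78 and 4.38 without gradient, and 6.20, 5.18 and 4.98 with gradient. A single array of 9, frozen with gradient replicate 1, lay over 6. The difference between the frozen conditions was 0.74 ± 0.32 (SE, limma adjusted p = 0.246) and 0.37 without that array. LCK, which starts receptor signaling, reached 4.82 there and lay between 3.67 and 4.07 elsewhere. IL7R, the receptor for interleukin 7 that keeps resting T cells alive, differed by 0.45 ± 0.20 (SE, limma adjusted p = 0.247) between the frozen conditions, and CCR7, which guides naive T cells to lymph nodes, by 0.38 ± 0.19 (SE, limma adjusted p = 0.259).

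**Figure D2:**
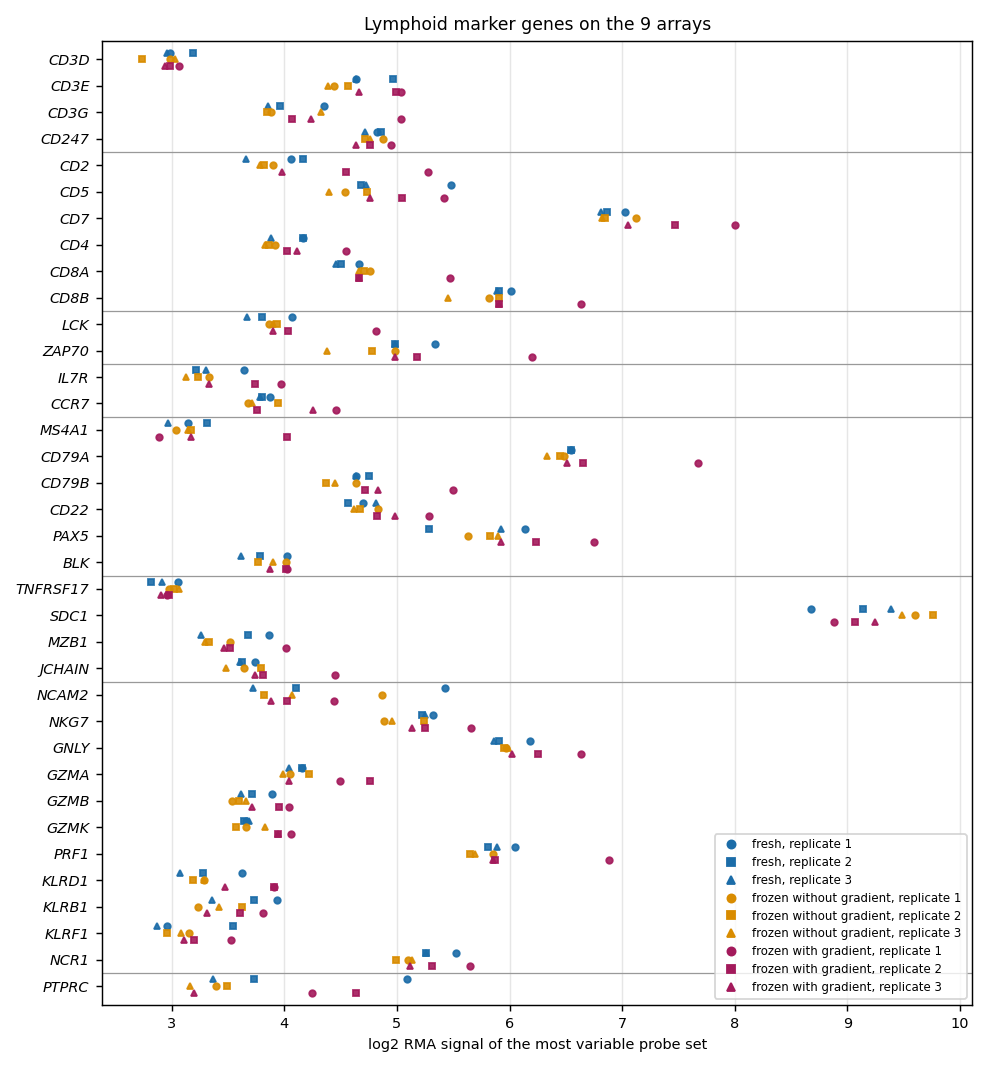
Log2 RMA signal of the most variable probe set of each of 36 lymphoid marker genes on the 9 arrays, with color for the condition, shape for the replicate number and grey lines between groups of genes by role. Frozen with gradient replicate 1 (red circle) was the highest array for 25 of 36 genes, and SDC1 was the gene whose frozen without gradient arrays lay above all others.

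Of 6 B cell markers, 4 were highest in frozen with gradient replicate 1, and BLK, at 4.03 in fresh replicate 1, and MS4A1 were not. CD79A, the alpha chain of the B cell receptor's signaling pair, read 6.54 on each fresh array, 6.49, 6.45 and 6.33 without gradient, and 7.67, 6.65 and 6.51 with gradient. Its range over the 8 arrays other than frozen with gradient replicate 1 was from 6.33 to 6.65. CD79B, the beta chain, differed between the frozen conditions by 0.53 ± 0.21 (SE, limma adjusted p = 0.244) and by 0.29 without that array, where it had been 5.50. MS4A1, which encodes the B cell surface protein CD20, went the other way on replicate 1 with gradient, at 2.89 its lowest value, and was highest in replicate 2 with gradient, at 4.03, against 2.97 to 3.31 on the remaining 7 arrays. CD22 is an inhibitory B cell receptor, PAX5 the transcription factor that holds B cell identity, and BLK a kinase of B cells. They differed by at most 0.52 in size at their most variable probe sets. None had an unadjusted p under 0.05 in the fit of genes. In the separate fit of all probe sets, the same CD22 probe set was higher with gradient than fresh by 0.34 (limma unadjusted p = 0.045, adjusted p = 0.826). In that fit, a PAX5 probe set unique to the gene was higher with gradient, by 0.62 over fresh and 0.57 over frozen without gradient (limma unadjusted p = 0.0048 and 0.0077). A second was higher by 0.44 in both (limma unadjusted p = 0.043 and 0.045). The remaining PAX5 probe sets had no unadjusted p under 0.05 in either comparison.

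Among plasma cell markers, SDC1 behaved unlike the other lymphoid genes. SDC1 encodes syndecan 1, the plasma cell antigen CD138, which many adherent and epithelial cells also carry. Its probe set read 8.68, 9.14 and 9.38 in the fresh arrays, 9.60, 9.76 and 9.48 without gradient, and 8.88, 9.06 and 9.25 with gradient. All 3 frozen without gradient arrays lay above the other 6, by 0.55 ± 0.20 over fresh (SE, limma adjusted p = 0.315) and 0.55 ± 0.20 over frozen with gradient (limma adjusted p = 0.244). It was the only marker with an unadjusted p under 0.05 in the first of these comparisons and the only one lower with gradient at that p in the second. All 3 of its probe sets have a suffix for probes that may also bind other transcripts, and the other two differed by 0.11 and 0.23 between frozen without gradient and fresh and by -0.41 and -0.29 between the frozen conditions. Without fresh replicate 1 the difference from fresh was 0.35, and with the GAPDH difference between ends as a covariate it was 0.31, neither with an unadjusted p under 0.05 in limma. The 3 further plasma cell markers did not follow SDC1. TNFRSF17, the survival receptor BCMA, lay between 2.82 and 3.07 on all 9 arrays, MZB1, a chaperone for antibody secretion, between 3.26 and 4.02, and JCHAIN, which joins antibody units, between 3.48 and 4.45 with its highest value in frozen with gradient replicate 1.

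The 11 genes listed for NK and cytotoxic cells gave 2 with an unadjusted p under 0.05 in each comparison that involved the frozen with gradient arrays and none between frozen without gradient and fresh. Over all genes these shares were 3.65% against fresh, 20.2% between the frozen conditions and 13.4% without gradient against fresh. GZMK, granzyme K, read 3.66, 3.64 and 3.68 fresh, 3.66, 3.57 and 3.83 without gradient, and 4.06, 3.95 and 3.94 with gradient. All 3 arrays with gradient lay above the other 6 arrays, by 0.32 ± 0.13 over fresh (SE, limma adjusted p = 0.857) and 0.30 ± 0.13 over frozen without gradient (limma adjusted p = 0.246). Without frozen with gradient replicate 1 these differences were 0.28 and 0.26.

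KLRD1, which encodes CD94, a partner of NK cell receptors, read 3.62, 3.28 and 3.07 fresh, 3.29, 3.19 and 3.29 without gradient, and 3.91, 3.91 and 3.47 with gradient. Its difference between the frozen conditions was 0.51 ± 0.19 (SE, limma adjusted p = 0.244), with no overlap of the arrays. It was 0.21 as the mean of all 7 probe sets, and 0.019 when frozen with gradient replicate 1 was left out and the most variable probe set chosen again. PRF1, perforin, reached 6.89 in frozen with gradient replicate 1 and lay between 5.65 and 6.05 elsewhere. GNLY, granulysin, GZMA and GZMB, granzymes A and B, NKG7, a protein of cytotoxic granules, and the receptors KLRB1, KLRF1 and NCR1 differed by 0.35 or less in size in every comparison. NCAM2, listed here, is best known as an adhesion molecule of neurons. Its most variable probe set, which may also bind other transcripts, was high in the replicates numbered 1. It read 5.42 fresh, 4.87 without gradient and 4.44 with gradient there, and lay between 3.72 and 4.11 on the other 6 arrays. The NCAM2 probe set with the highest mean, unique to the gene, had the reverse order on those arrays, at 4.83, 5.29 and 5.86. It lay between 4.51 and 4.97 on the other 6.

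PTPRC, which encodes the pan-leukocyte phosphatase CD45, varied most of the 36. Its most variable probe set read 5.09, 3.73 and 3.37 fresh, 3.40, 3.49 and 3.16 without gradient, and 4.24, 4.64 and 3.20 with gradient. Fresh replicate 1 and frozen with gradient replicates 1 and 2 were high, and the other 6 arrays lay at or below 3.73, so each condition except frozen without gradient held high and low arrays. The differences were -0.71 ± 0.48 for frozen without gradient against fresh (SE, limma adjusted p = 0.547), -0.036 ± 0.48 between frozen with gradient and fresh (limma adjusted p = 0.989) and 0.68 ± 0.48 between both frozen conditions (limma adjusted p = 0.342). Without fresh replicate 1 they were -0.20 for the first and 0.48 for the second. The 5 other probe sets of PTPRC ranged by 0.31 to 1.28 over the arrays, against 1.93 for this one. None of them was highest in fresh replicate 1. Their highest values lay in fresh replicate 2 or in frozen with gradient replicate 1 or 2, so the high value of fresh replicate 1 rests on a single probe set.

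**Figure D3:**
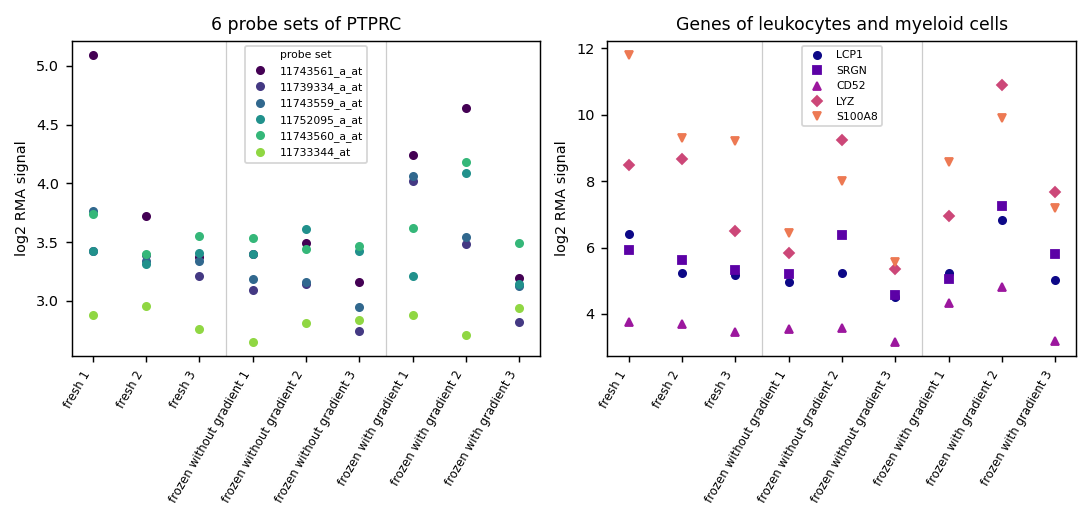
Log2 RMA signal on each of the 9 arrays for the 6 probe sets of PTPRC (left) and for 5 genes of leukocytes and myeloid cells (right), with vertical lines between conditions. The most variable probe set, first in the key, reached 5.09 in fresh replicate 1 and 4.64 in frozen with gradient replicate 2, where S100A8 read 11.8 and 9.91.

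Some genes of other marrow cells were high on 2 of the 3 arrays high in the most variable PTPRC probe set. These arrays were fresh replicate 1 and frozen with gradient replicate 2. The genes were chosen after their values were seen, except for S100A8. S100A8 is a calcium-binding protein of neutrophils and monocytes. It read 11.8 in fresh replicate 1 and 9.91 in frozen with gradient replicate 2, the highest values of their conditions. But it also read 9.29 and 9.20 in fresh replicates 2 and 3, where PTPRC was low. In the frozen without gradient arrays it read 5.56 to 8.01. LYZ, lysozyme, read 8.48 in fresh replicate 1 and 10.9 in frozen with gradient replicate 2. But it also read 8.65 in fresh replicate 2 and 9.25 in frozen without gradient replicate 2, where PTPRC was low. LCP1, an actin bundler of leukocytes, read 6.42 in fresh replicate 1 and 6.84 in frozen with gradient replicate 2. The other 7 arrays read 4.52 to 5.25. On the third, frozen with gradient replicate 1, S100A8 read 8.57, LYZ 6.94 and LCP1 5.24, each below its value in fresh replicate 2. The summed linear signal of the 19 granulocyte genes was 1272 to 5420 in the fresh, 367 to 754 in the frozen without gradient and 568 to 1770 in the frozen with gradient arrays. That of the 15 monocyte and macrophage genes was 569 to 863, 469 to 1008 and 623 to 2363. The part of these cells in the PTPRC values was not tested. LCP1 was one of 18 further leukocyte genes, of which 1, 0 and 2 had an unadjusted p under 0.05 in limma (13.4%, 3.65% and 20.2% of all genes). Not all followed LCP1. CD53 and LAPTM5 were highest in fresh replicate 1, and CD52 and ARHGDIB in frozen with gradient replicate 2. ITGB2, HCLS1, CD48, CD37 and LSP1 were highest in frozen with gradient replicate 1. SRGN read 6.38 in frozen without gradient replicate 2, above its 5.94 in fresh replicate 1. CORO1A, an actin-binding protein of that list, did not follow PTPRC: it was lowest in fresh replicate 1, at 5.59. It passed the criterion as higher without gradient than fresh (1.22 ± 0.46, SE, limma adjusted p = 0.323).

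Most markers were highest in frozen with gradient replicate 1. It was the highest of the 9 arrays for 25 of 36 markers (69.4%), for 57.1% of the 10017 other genes with a mean log2 of 3 to 6 and for 39.3% of all genes. The markers' median deviation from their 9-array median was 0.57 on that array, that of the other genes in the band was 0.41 and that of the 23 background control probe sets was 0.30. On the other 8 arrays the markers' median deviation was -0.14 to 0.095. The median of the background controls was 3.37 ± 0.20 with gradient and 3.17 ± 0.028 without (SD, n = 3, two-sided exact permutation p = 0.1, the smallest the design allows). With this median as a covariate the markers' median difference was 0.049 for frozen with gradient against fresh and 0.065 against frozen without gradient, and no marker had an unadjusted p under 0.05 in limma in either comparison.

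**Figure D4:**
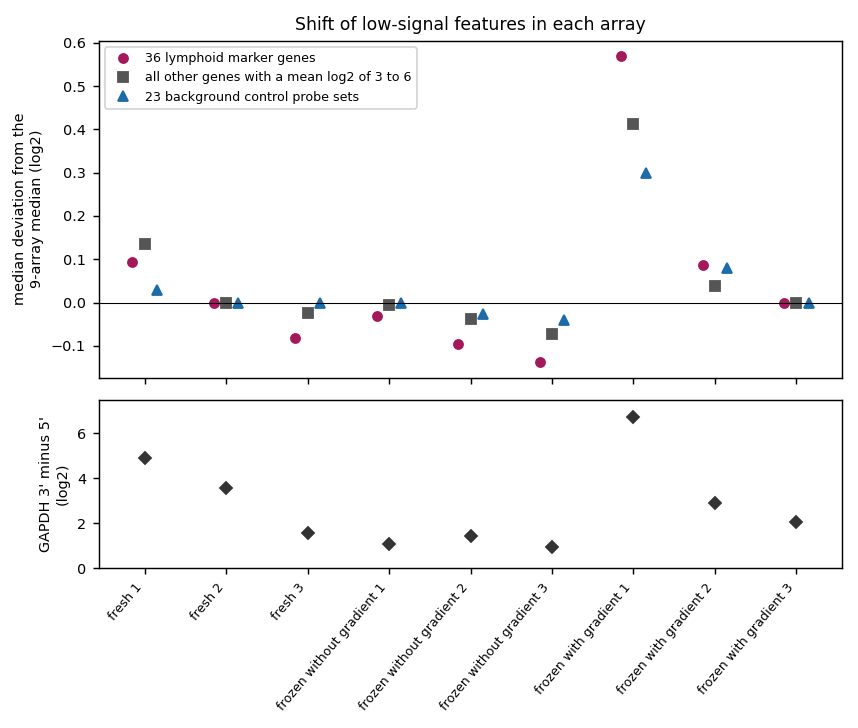
Upper panel, median deviation of log2 signal from the 9-array median for the 36 lymphoid marker genes, the other genes with a mean log2 of 3 to 6 and the 23 background control probe sets on each array; lower panel, GAPDH signal at the 3' end minus that at the 5' end. Frozen with gradient replicate 1 has the highest value of every series, 0.57, 0.41, 0.30 and 6.73.

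Signal levels limited what could be read. The mean log2 signal lay between 3 and 6 for 30 of 36 markers, and for 29 it lay below 5.57, the median over all genes. The background control probe sets, which match no human gene and differ in base composition, had means from 2.60 to 9.66 with a median of 3.26. That span, set by its extremes, is wide, and it held the means of all 36 markers. A level in that span does not by itself tell transcript from background, so no marker was called present or absent and no level of a marker was set against that of another.

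Read probe set by probe set, the result was the same in count. None of the 101 passed the criterion in any comparison, where 1.52%, 0.0467% and 2.72% of all probe sets did. In limma 1, 8 and 19 of 101 had an unadjusted p under 0.05, beside 13.6%, 4.74% and 18.9% of all probe sets. Probe sets of a gene often disagreed in level, most for PAX5, whose 10 had means from 3.92 to 9.00. KLRD1 had 7 probe sets with means from 3.02 to 5.70, and the probe set highest in fresh replicate 1, at 5.47, was not the one described, which was highest with gradient. A suffix for probes that may bind other transcripts was carried by 27 of the 101.

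Over the 9 arrays, no lymphoid marker ranged by more than 2 on the log2 scale, as 11.3% of all genes did, and 16 of 36 ranged by more than 1 (47.6% of all genes). In the band of 4 to 5 the count over 1 was 6 of 11 markers, beside 41% of genes. Granulocyte genes spread farther, with 7 of 19 over 2 and a highest range of 6.24 for S100A8. So did 2 of 15 monocyte and macrophage genes, 3 of 9 platelet genes, and among 9 erythroid genes HBB, which encodes beta globin, at 7.13. HBB read 10.8 to 12.7 fresh, 5.59 to 9.33 without gradient and 9.33 to 10.1 with gradient, and passed the criterion as lower than fresh both without gradient (-3.97 ± 0.91, SE, limma adjusted p = 0.290) and with it (-2.09 ± 0.91, limma adjusted p = 0.857). Of the granulocyte genes, 7 of 19 passed it as lower without gradient than fresh, among them S100A12 and MMP9, where 2.47% of all genes passed in either direction. Whether the lists differ was not tested.

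**Figure D5:**
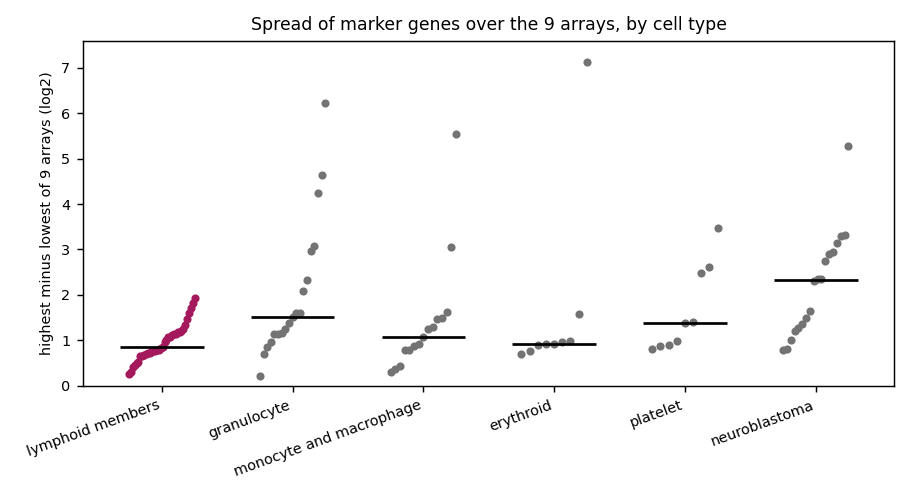
Range of log2 signal over the 9 arrays (highest minus lowest) for each measured gene of 6 marker lists, with a black line at the median of each list. The 36 lymphoid genes all lie below 2, with a highest value of 1.93, while HBB reaches 7.13 in the erythroid and S100A8 6.24 in the granulocyte list.

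Further lymphoid genes were counted from lists of the same cell types, to be read against 13.4%, 3.65% and 20.2% of all genes at an unadjusted p under 0.05 in limma. Of 20 other T cell genes none passed the criterion in any comparison, and 0, 0 and 2 were counted at that p in the 3 comparisons. Of 6 other plasma cell genes none passed it either, with 2, 0 and 1 at that p. Of 20 other B cell and precursor genes 1 passed, EBF1, a transcription factor of early B cells that other tissues also use, as lower with gradient than without (-1.03 ± 0.35, SE, limma adjusted p = 0.244). At that p there were 1, 0 and 5 of 20. Of 17 other NK genes, with 3, 2 and 3 at that p, 1 passed, NCAM1, which encodes CD56 and is also an adhesion molecule of neural cells, as higher without gradient than fresh (1.14 ± 0.38, SE, limma adjusted p = 0.293). Both had their highest value in a frozen without gradient array, as SDC1 did. Of the 18 neuroblastoma genes, 2 passed the criterion as higher without gradient than fresh, where 2.47% of all genes passed it in either direction, and the median of the list was 0.23. They were HAND2 and TH, a regulator and an enzyme of sympathetic neurons (1.48 ± 0.46 and 1.13 ± 0.39, SE, limma adjusted p = 0.290 and 0.295). EBF1 had its lowest value, 4.44, in frozen with gradient replicate 1. The part of the tumor cells' own transcripts in the values of SDC1, EBF1 and NCAM1 was not tested. Nor was that of the GAPDH difference between ends in EBF1, NCAM1, HAND2 and TH.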

How the data were processed

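The authors hybridized 100 ng of total RNA per sample to PrimeView arrays and deposited log2 signals per probe set, computed with RMA. These values were used as they are, and raw intensities were not used here. The tests left out 102 control probe sets of 49395, and those that the platform annotation paired with several symbols (1832) or none (2473). The most variable probe set over 9 arrays stood for each gene, as in the methods of the study. All 18132 genes were fitted with limma 3.58.1 in R 4.3.3, with a mean per condition and no further term, and p-values were adjusted by the Benjamini-Hochberg method over all genes. A gene passed the criterion with p under 0.05 before adjustment and a log2 difference over 1 in size. With 3 arrays per condition, their number limits the precision, and p-values measure the spread between these samples.

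The members and the gene lists were chosen with earlier results of these data known. All members were named, together with at most 4 genes past the criterion per other list, smallest p first, and HBB, S100A8 and GAPDH. LYZ and LCP1, the further genes plotted with them and the other leukocyte genes given beside them were named after their values were seen. Alternatives covered the choice of probe set, normalization, a filter on low signals, the variance model, array weights, covariates, the replicate block, fits of only the 6 arrays concerned, and leaving out each array. The background control covariate, the probe sets unique to a gene, leaving out both arrays highest in PTPRC, and choosing probe sets again after leaving out an array were added after the data were seen. The procedure was tested on simulated data. For frozen with gradient against frozen without gradient, arrays with the same replicate number deviated together in all 3 pairs (r = 0.42, 0.21 and 0.50 across genes, which are not independent replicates).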

Additional observations from a re-analysis of the deposited data

Results flagged for a closer look

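The background control probe sets, which took no part in the tests of genes, had a median log2 signal of 3.59 in frozen with gradient replicate 1 and 3.31 in frozen with gradient replicate 2. Both values lay above the highest of the fresh arrays, 3.30. The third array of that condition read 3.21, and the frozen without gradient arrays read 3.15 to 3.21. Against fresh, the difference of 0.14 gave a two-sided exact permutation p of 0.2, and the smallest p this design allows is 0.1. The lymphoid markers were highest in replicate 1 of that condition for 25 of 36 genes and in replicate 2 for 2. The part of the background in their values was not tested beyond the covariate. Between the frozen conditions this median was higher on every array with gradient than on any without. There the covariate cannot be told apart from the condition.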

How the results depend on the processing

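Under 22 alternatives the count of lymphoid markers past the criterion stayed at 0 for frozen without gradient against fresh and for frozen with gradient against fresh. For frozen with gradient against frozen without gradient it was 1 (PTPRC, at 1.26) with array weights and ranged from 0 to 2 with each array left out. The 2 were CD2 at 1.07 and PTPRC at 1.09, without frozen with gradient replicate 3. The same settings gave 1 and 0 to 2 of 101 probe sets, from a count of 0. Array weights did not converge and put 12, 26 and 19 of 36 markers at an adjusted p under 0.05 in limma, where no other alternative put any. At a mean log2 of at least 5, 10 of 36 markers were left. Single genes kept their direction and their side of the criterion in 331 of 339 alternatives, but part of this count was fixed in advance. The variance model, the replicate block, fits of only the arrays concerned and leaving out an array outside the comparison cannot change a difference. PTPRC in frozen without gradient against fresh, for example, stayed at -0.71 under these settings. Since every such gene had a main difference under 1 in size, it could not pass the criterion there either. The count therefore does not measure robustness. PTPRC in frozen with gradient against fresh turned from -0.036 to 0.072 with the mean of all probe sets, 0.90 with array weights and 0.17 without both arrays highest in PTPRC, and ranged from -0.38 to 0.48 with an array left out. When the most variable probe set was also chosen again over the 8 arrays left, KLRD1 in that comparison ranged from -0.35 to 0.59 (0.44 with all arrays) and PTPRC from -0.38 to 0.48. The counts of markers past the criterion were then 0, 0 and 0 to 2. The cause was not tested. Over all genes the counts of 448, 16 and 788 ranged from 75 to 1419, 4 to 190 and 87 to 2039. The signal of low probe sets and 3 arrays per condition limit what can be read.

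The replicate number as a block left 0, 0 and 0 markers past the criterion and 0 of 101 probe sets, and gave 729, 25 and 1298 of all genes. For both comparisons with fresh, same-numbered arrays did not all deviate together: r was 0.0089 and 0.045 for the arrays numbered 2 and 0.43 to 0.80 for the others. Of 9 arrays, 6 correlated best with an array of their own number.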
